A study of Mus musculus with 38 samples.

Results

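The collagen genes of mouse lung adenocarcinoma organoids were followed across all 38 RNA-seq libraries of the study. The family was taken as every gene with a symbol made of Col, a number, the letter a and a number, matched from the Ensembl gene IDs of the count tables, and it held 44 genes of the 55421 IDs in the double-floxed table and of the 55487 IDs in each of the other tables. By type number, 11 were fibrillar collagens, 6 were the type IV chains of basement membranes and 27 belonged to other types. Organoids are clusters of tumour cells, here each line from 1 tumour, grown in Matrigel with L-WRN conditioned medium. Every line was of strain Mixed 129/B6 and carried KrasFSF-G12D, p53frt and Rosa-FSF-CreERT2, a Cre recombinase that 4-hydroxytamoxifen (4-OHT) switches on. With both Foxa1flox and Foxa2flox, lines 1027B, 1027D and 1292B gave 5 libraries treated with ethanol vehicle and 5 treated with 2 uM 4-OHT for 72 hours. With Foxa1flox alone, lines 1552A, 1552B and 1552C gave 6 and 6. With Foxa2flox alone, lines 1267B and 1526C gave 4 and 4. A further experiment in the double-floxed line 1027B added a short hairpin RNA, either the control shScramble or shNKX2-1 (which targets Nkx2-1), and gave each vehicle or 4-OHT, in 2 libraries a group. No line without floxed alleles was analysed here, so an effect of 4-OHT or Cre itself cannot be told apart from loss of the Foxa genes.

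Collagens are secreted proteins built from 3 chains wound into a triple helix. Fibrillar collagens (types I, II, III, V, XI, XXIV and XXVII) form the fibres of connective tissue and are made mainly by fibroblasts and cartilage cells. Type IV chains form the sheet-like network of basement membranes on which epithelial cells rest, in the set combinations α1α1α2, α3α4α5 and α5α5α6. Others carry more local roles: type VI makes beaded filaments, type VII the anchoring fibrils under epithelia, type VIII a short-chain network around vessels and in the eye, and type XVIII, whose C-terminal end is released as endostatin, is a proteoglycan of basement membranes.

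Promoter windows are shown for 5 genes on which the results turn, from 250 bases before to 50 bases after the RefSeq start (build GRCm38.p6, 5′ to 3′ on the strand of the gene). Windows were at hand for 35 of the 44 genes. Forkhead factors bind variants of the letters TGTTTAC, and NKX2 factors variants of CACTTGA. In the first 2 windows, Col6a1 at chr10:76725995-76726294 (minus strand) and Col8a1 at chr16:57754688-57754987 (minus strand), the capitals mark a forkhead-type match. They are shown because both genes rose with 4-OHT in Foxa2-floxed organoids. In Col7a1 at chr9:108953336-108953635 (plus strand) the capitals mark an NKX2-type match. In Col4a1 at chr8:11312777-11313076 (minus strand) and Col4a2 at chr8:11312555-11312854 (plus strand) the capitals mark the 78 bases that both windows share, since these genes start back to back and their levels moved together.
Col6a1: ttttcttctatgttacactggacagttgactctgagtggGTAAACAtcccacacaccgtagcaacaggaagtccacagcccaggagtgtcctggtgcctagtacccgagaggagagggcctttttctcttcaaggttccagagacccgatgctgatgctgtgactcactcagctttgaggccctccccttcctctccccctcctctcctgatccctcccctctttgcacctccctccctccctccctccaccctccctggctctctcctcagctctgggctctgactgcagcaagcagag
Col8a1: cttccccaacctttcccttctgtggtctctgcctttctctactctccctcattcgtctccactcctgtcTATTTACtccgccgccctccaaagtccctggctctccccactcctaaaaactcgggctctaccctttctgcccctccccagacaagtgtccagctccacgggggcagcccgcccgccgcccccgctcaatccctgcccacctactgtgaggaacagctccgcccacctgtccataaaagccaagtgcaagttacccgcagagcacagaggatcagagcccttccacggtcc
Col7a1: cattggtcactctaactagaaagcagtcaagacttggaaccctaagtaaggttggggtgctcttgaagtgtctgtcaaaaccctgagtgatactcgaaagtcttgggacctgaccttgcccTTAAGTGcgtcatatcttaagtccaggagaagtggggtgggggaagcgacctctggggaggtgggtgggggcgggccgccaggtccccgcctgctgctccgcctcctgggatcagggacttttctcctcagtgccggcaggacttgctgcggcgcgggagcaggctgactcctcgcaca
Col4a1: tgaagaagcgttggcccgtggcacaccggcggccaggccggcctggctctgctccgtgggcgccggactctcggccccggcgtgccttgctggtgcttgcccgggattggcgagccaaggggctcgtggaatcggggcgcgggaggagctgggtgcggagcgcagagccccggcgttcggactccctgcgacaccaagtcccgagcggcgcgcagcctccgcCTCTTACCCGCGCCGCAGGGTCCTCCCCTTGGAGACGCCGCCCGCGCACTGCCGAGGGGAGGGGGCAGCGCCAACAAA
Col4a2: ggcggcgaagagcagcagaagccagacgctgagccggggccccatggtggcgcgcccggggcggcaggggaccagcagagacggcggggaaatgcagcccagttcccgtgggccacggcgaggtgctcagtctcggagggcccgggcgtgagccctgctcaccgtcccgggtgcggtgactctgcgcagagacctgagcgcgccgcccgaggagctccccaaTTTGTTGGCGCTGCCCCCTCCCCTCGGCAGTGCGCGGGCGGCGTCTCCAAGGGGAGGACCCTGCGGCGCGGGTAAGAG
The search took as forkhead-type letters, on both strands, TGTTTAC with its variant TGTTTGC, and TATTTAC with its variant TATTTGC. At least 1 match stood in 13.5% of all 32851 promoter windows and in 4 of the 38 collagen windows, those of Col6a1, Col8a1, Col3a1 and Col25a1. The match began 211 bases before the start of Col6a1, as GTAAACA on the printed strand, and 181 bases before that of Col8a1. For the NKX2-type letters (CACTTGA with its variant CACTTAA, and CACTCGA with its variant CACTCAA) the shares were 9.32% of all windows and 4 of 38 collagen windows (Col7a1, Col4a5, Col20a1 and Col24a1). CCAAT, which overlaps none of these, was present in 37.4% of all windows and in 13 of the 38. A match of letters is a description only, not evidence that a factor binds there.

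Total counts ran from 18.3 to 32.0 M (1 M is 1000000 reads) in double-floxed libraries, 18.5 to 33.2 M in single-floxed and 13.6 to 16.3 M in hairpin libraries. Levels are given as CPM, the counts per 1000000 reads after scaling by trimmed means (TMM). In the floxed libraries the targeted genes followed the labels. With 4-OHT, Foxa1 and Foxa2 both fell in double-floxed organoids (log2 change -1.80 and -4.49, edgeR adjusted p = 0.0284 and 0.00151), Foxa1 in Foxa1-floxed organoids (-1.92, adjusted p = 6.08e-07) and Foxa2 in Foxa2-floxed organoids (-5.11, adjusted p = 3.55e-09). The Foxa gene that was not floxed was fitted higher, without a call, in each single-floxed comparison. In each hairpin arm both genes were fitted lower with 4-OHT, but only 1 of the 2 was called. Their summed level went from 98.9 and 121 CPM to 21.1 and 22.3 with shScramble. With shNKX2-1 it went from 94.0 and 120 to 20.05 and 23.8. Nkx2-1 stood at 280 and 350 CPM in shNKX2-1 vehicle libraries against 424 and 428 with shScramble, and at 181 and 207 against 359 and 408 with 4-OHT. Neither difference passed the test (adjusted p = 0.755 and 0.0763, edgeR). The epithelial markers were present in every group (5221 to 18350 CPM summed over 6 genes). The 8 fibroblast markers summed to between 0 and 4.61 CPM, with Lum at 0 in every library. Endothelial and smooth muscle markers summed to at most 7.57 and 15.8 CPM, and leukocyte markers to between 4.31 and 60.5. The second shNKX2-1 4-OHT library stood apart, with 11.7% mitochondrial counts against 1.09 to 4.30% in the other 37.

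Most collagen reads of the organoids came from basement membrane genes. All 44 genes summed to a median of 1492 CPM, from 308 to 5251. Type IV chains made up a median of 84.3% of that sum (47.1 to 97.7%) and Col18a1 another 12.7% (1.66 to 45.9%), while the fibrillar genes together had a median of 5.35 CPM (1.31 to 119) or 0.379% of the sum (0.060 to 6.58%). The highest fibrillar sums were those of 1 Foxa2-floxed vehicle library of 1267B (119 CPM) and 1 double-floxed vehicle library of 1027D (118.5 CPM). Per kb of exon, the scale on which genes can be set side by side, the order of median levels was Col4a1 (81.0 CPM per kb), Col4a2 (74.2), Col18a1 (27.1), Col4a5 (9.69), Col4a4 (2.49) and Col4a3 (1.87). Below these came Col20a1 (0.447), Col7a1 (0.324), Col11a2 (0.305), which is the fibrillar gene with the highest median, Col8a1 (0.221), Col27a1 (0.107), Col15a1 (0.103) and Col1a1 (0.0767). Neighbours in this order overlapped widely, since Col4a1 alone ranged from 2.73 to 382 CPM per kb. Among the main products of fibroblasts, the α2 chain of type I and the α1 chain of type III were near the limit of detection. Col1a2 had 2 counts in the whole double-floxed table, 2 in the single-floxed and 0 in the hairpin table, and Col3a1 had 6, 5 and 0. Col1a1, the α1 chain of type I, did not exceed 3.43 CPM in any library.

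**Figure D1:**
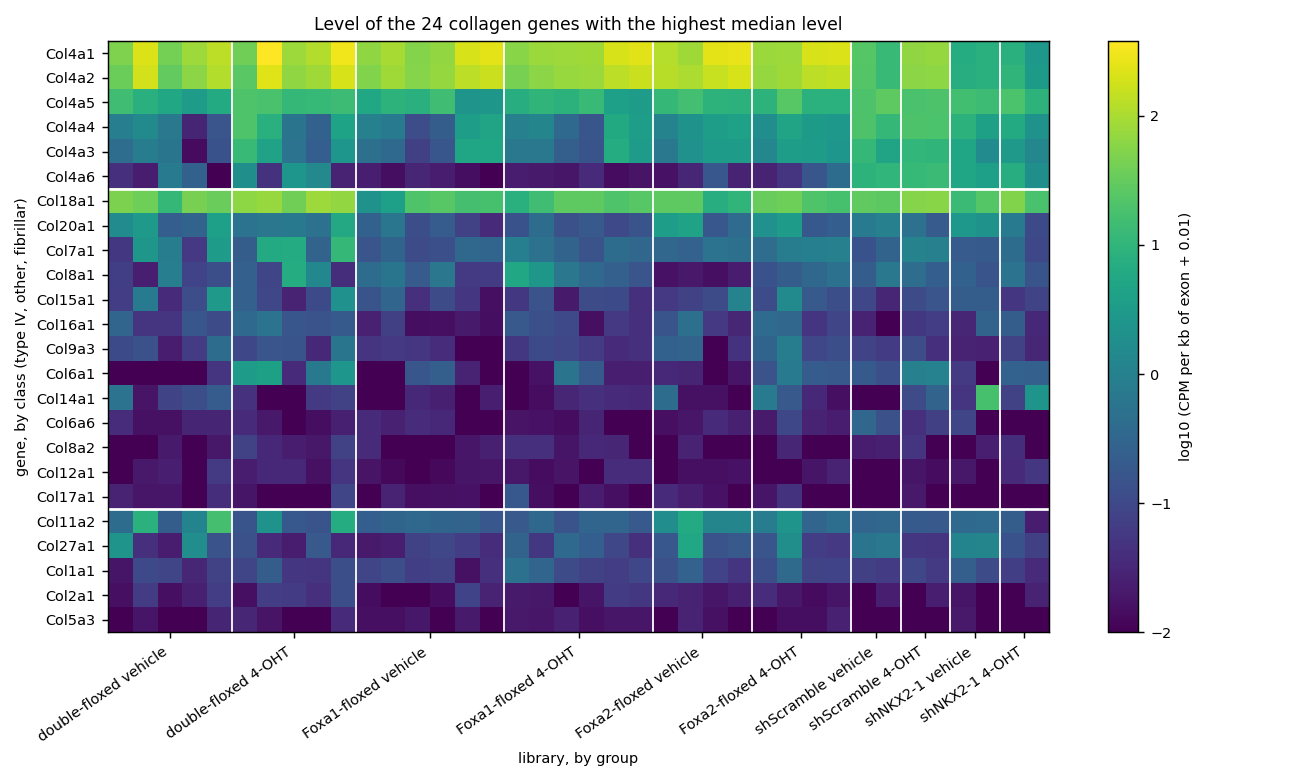
Heat map of the 24 collagen genes with the highest median level. Columns are the 38 libraries in their 10 groups, rows are genes in 3 classes, and colour is log10 of CPM per kb of exon plus 0.01. Col4a1, Col4a2 and Col18a1 have the highest medians, although Col4a5 exceeded Col4a1 in all 4 shNKX2-1 libraries. It also did so in the second shScramble vehicle library (28.1 against 12.2 CPM per kb). Col6a1 was dark in double-floxed vehicle libraries and brighter in 4 of the 5 double-floxed 4-OHT libraries.

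A filter on low counts left 21 of the 44 genes for testing in the double-floxed table, 21 in the single-floxed table and 18 in the hairpin table. All 6 type IV genes passed in each table. Of the 23, 23 and 26 genes that did not pass, none had more than 34, 83 and 24 counts over its whole table (Col6a3, Col6a6 and Col9a3), and 9 had no count at all in the hairpin libraries. In double-floxed organoids 4 collagen genes rose with 4-OHT and none fell, where 3.9% of all 15198 tested genes were called. Col6a1 and Col6a2, which are 2 of the 4, had 4 and 2 counts with vehicle and passed the filter through the 4-OHT group, so they had to differ and the count is not read against that share. With Foxa1 alone floxed no collagen gene was called, beside 0.0118% of 16887 genes, 7 of the 21 had an unadjusted p under 0.05 (1928 over all genes) and DESeq2 called 3. With Foxa2 alone floxed 2 rose and 1 fell, beside 3.43%, and those that rose, Col6a1 and Col8a1, had 5 and 7 vehicle counts. Without the line block 0 collagen genes were called in either the double-floxed or the Foxa2-floxed comparison. In double-floxed organoids 8 were called with a block of line and title prefix, 7 with DESeq2 and 13 with no filter. In Foxa2-floxed organoids 1 was called on counts summed per line and 8 with no filter. The test was edgeR's quasi-likelihood test with line as block and Benjamini-Hochberg adjustment over all tested genes, and a gene is called at an adjusted p under 0.05. The labels do not say that repeat libraries of a line were separate cultures, so p-values measure the spread between these libraries, part of which may be technical. In bulk RNA, fewer cells that express a gene and less RNA per cell cannot be told apart.

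Type VI showed the largest fitted rise. Col6a1 (chr10:76708792-76726168, minus strand), which encodes the α1 chain, had no counts in 4 of the 5 double-floxed vehicle libraries and 0.181 CPM in the other, a 1027D library. With 4-OHT it stood at 14.5 and 3.13 CPM in 1027B, 17.9 and 11.3 in 1027D and 0.113 in 1292B. The rise was thus seen in all 4 libraries of 1027B and 1027D, while the 1292B library overlapped the vehicle range. Summed over libraries, 4 counts stood against 1122, a 259-fold ratio with a 95% exact counting interval of 100.9 to 952, which covers counting error only. The fitted log2 change was 7.92 (SE 0.97, adjusted p = 0.00626, edgeR), and it was 10.03 with adjusted p = 0.229 without line 1027D. In Foxa2-floxed organoids the vehicle libraries held 0.103 and 0.0841 CPM in 1267B and 0 and 0.0359 in 1526C. The 4-OHT libraries held 0.612 and 3.52 in 1267B and 0.900 and 0.803 in 1526C, all above every vehicle library. That rise was 4.67 on the log2 scale (SE 0.69, adjusted p = 0.00122), 5 counts against 175, and its adjusted p was 0.103 without line 1526C and 1 without the line block. In Foxa1-floxed organoids line 1552B held most of it, at 0.694 and 1.02 CPM with vehicle, and the 4-OHT libraries of that line had 2.55 and 0.834. The Foxa1-floxed log2 change was 0.97 (SE 0.59, adjusted p = 0.549).

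Col6a2 (chr10:76595762-76623630, minus strand), the α2 chain of the same heterotrimer, followed Col6a1 at a lower level in double-floxed and Foxa2-floxed organoids. Double-floxed vehicle libraries held 2 counts in all, both in 1027D. With 4-OHT it reached 2.01 and 0.268 CPM in 1027B, 1.29 and 1.01 in 1027D and 0 in 1292B. The 108 counts against 2 give a ratio of 49.9 (interval 13.5 to 417), and the fitted log2 change was 5.27 (SE 0.98, adjusted p = 0.0312). This call was lost in 10 of 17 alternatives, where the adjusted p reached 0.0966. In the Foxa2-floxed lines it had 0 counts with vehicle and 14 with 4-OHT, at least 4.04-fold higher when the vehicle group is set to a floor of 3 counts in all, and was not tested. No hairpin library had a count of Col6a2, although Col6a1 had 143 counts with shScramble and 4-OHT. Line 1552B also had 0 counts of Col6a2, beside 49 of Col6a1 with vehicle and 92 with 4-OHT. Col6a3, which encodes the α3 chain of the classic type VI heterotrimer, had only 34 counts in the double-floxed table and was not tested there.

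Col6a1 also stood higher with 4-OHT in the hairpin libraries of line 1027B. It went from 0.825 and 0.540 CPM to 4.28 and 4.71 with shScramble, and from 0.220 and 0 to 1.15 and 1.06 with shNKX2-1. The 4-OHT libraries lay above the vehicle libraries in both arms, but neither change passed the test (log2 2.697, adjusted p = 0.0593, and log2 3.33, adjusted p = 0.0640, edgeR). In both arms the gene passed with DESeq2 (adjusted p = 0.00168 and 0.0130). With 4-OHT, shNKX2-1 libraries had less Col6a1 than shScramble libraries (log2 -2.01, SE 0.62, adjusted p = 0.196), which was no call with edgeR and passed with DESeq2 (adjusted p = 0.0453).

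Type VIII behaved differently by line. Col8a1 (chr16:57624258-57754737, minus strand) encodes the α1 chain of this short-chain network collagen. In Foxa2-floxed organoids it was nearly silent with vehicle, at 0.0516 and 0.0841 CPM in 1267B and 0.0410 and 0.108 in 1526C. With 4-OHT it stood at 1.02 and 1.71 in 1267B and 2.54 and 3.98 in 1526C, again without overlap. The log2 change was 4.89 (SE 0.74, adjusted p = 0.0014), from 7 counts to 263, a ratio of 32.5 (interval 15.6 to 81.6). The adjusted p was 0.0863 on counts summed per line, 0.246 without line 1526C and 0.315 without the line block. In double-floxed organoids 1292B was far above the rest, at 7.21 CPM with vehicle and 54.3 with 4-OHT. Line 1027B went from 0.475 and 0.566 to 1.91 and 10.6, while 1027D had 0.109 and 0.904 with vehicle and 0.645 and 0.230 with 4-OHT. The fitted change was 2.10 (SE 0.94, adjusted p = 0.255), and it passed with no filter on low counts (adjusted p = 5.11e-05). In Foxa1-floxed organoids line 1552A rose from 3.25 and 4.66 CPM to 42.8 and 20.4, line 1552C went from 0.398 and 0.410 to 1.95 and 1.19, and line 1552B spanned 1.52 to 5.12 with vehicle and 2.75 to 5.13 with 4-OHT. That change was 1.74 (SE 0.44, adjusted p = 0.148), and it passed in 4 of 20 alternatives. These were leaving out line 1552B (2.56, adjusted p = 0.0215) or vehicle replicate 4 (2.23, adjusted p = 0.0377), DESeq2 (adjusted p = 0.00968) and no filter (adjusted p = 1.95e-08). In the hairpin libraries Col8a1 lay between 1.13 and 5.20 CPM in every group, and the direction of its difference turned with single libraries.

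**Figure D2:**
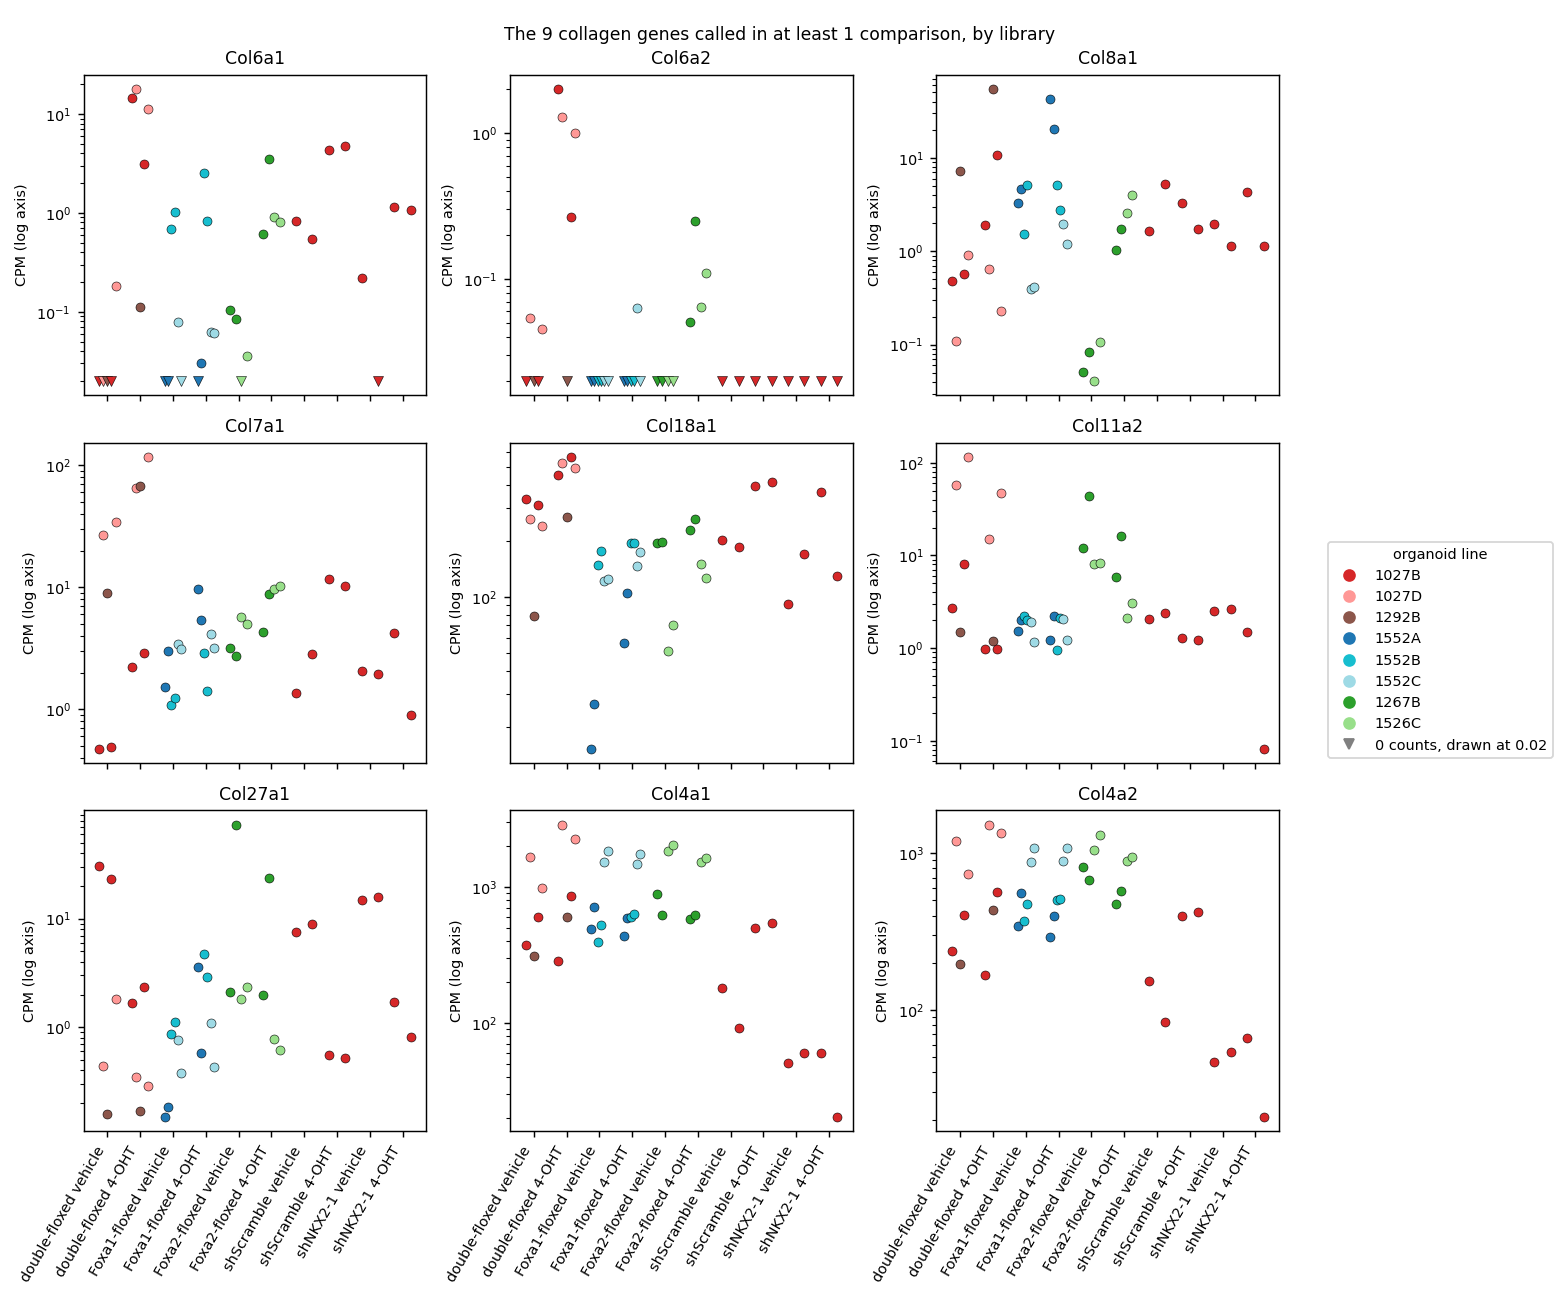
CPM on a log axis of the 9 collagen genes called in at least 1 comparison, 1 point a library, coloured by organoid line and placed by group. Triangles at 0.02 are libraries with 0 counts. Col6a1 and Col8a1 rose in all 4 Foxa2-floxed 4-OHT libraries, while Col27a1 was lower with 4-OHT in both hairpin arms.

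The whole-table effects of genotypes were compared on counts summed per line. Where double-floxed and Foxa2-floxed effects were compared, 0.194% of 19085 genes were called and no collagen gene was. Col6a1 differed by 3.03 on the log2 scale (SE 1.06, adjusted p = 0.443) and Col8a1 by -2.67 (SE 1.46, adjusted p = 0.666). Of the 26 tested collagen genes 6 had an unadjusted p under 0.05, beside 1700 of the 19085, and DESeq2 called 1. Between Foxa1-floxed and Foxa2-floxed effects 0 of the 19085 genes were called (0%), with 733 at an unadjusted p under 0.05, 4 of them collagen genes, and DESeq2 called no collagen gene. Col6a1 differed there by -3.86 (SE 0.86, adjusted p = 0.944) and Col8a1 by -3.19 (SE 1.43, adjusted p = 1). A rise called in one genotype and not in another is therefore not shown to differ between them.

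Among collagens of the epithelial border, Col7a1 and Col18a1 rose in double-floxed organoids. Col7a1 (chr9:108953586-108984875, plus strand), the anchoring fibril chain, had 0.475 and 0.495 CPM in 1027B vehicle libraries, 26.96 and 34.1 in 1027D and 9.06 in 1292B. With 4-OHT it had 2.20 and 2.91 in 1027B, 65.6 and 117 in 1027D and 67.8 in 1292B. Every line rose, although the lines lay so far apart that the groups overlapped. The log2 change was 2.13 (SE 0.28, adjusted p = 0.00747, edgeR). It was 1.85 with adjusted p = 0.647 without the line block, and the adjusted p was 0.0869 without 1027B and 0.0925 without 1027D. Its mean was higher with 4-OHT in each of the 8 floxed lines, by 0.15 to 2.90 on the log2 scale. In the single-floxed comparisons that was no call, at 0.92 (SE 0.29, adjusted p = 0.246) for Foxa1 and 1.02 (SE 0.34, adjusted p = 0.12) for Foxa2. In hairpin libraries Col7a1 went from 1.36 and 2.84 CPM to 11.6 and 10.2 with shScramble (log2 2.38, adjusted p = 0.0955). It went from 2.05 and 1.94 to 4.20 and 0.900 with shNKX2-1 (0.37, adjusted p = 0.737).

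Col18a1 (chr10:77052178-77166548, minus strand) was the most abundant collagen outside type IV. Double-floxed vehicle libraries held 336 and 312 CPM in 1027B, 263 and 239 in 1027D and 78.9 in 1292B, and 4-OHT libraries 451 and 564.4, 523 and 493, and 269. Within each line every 4-OHT library exceeded every vehicle library, and the log2 change was 1.02 (SE 0.19, adjusted p = 0.0236). The call was lost in 12 of 19 alternatives, among them leaving out any 1 of the 3 lines (adjusted p = 0.0711 without 1027B, 0.299 without 1027D and 0.0551 without 1292B), with changes from 0.82 to 1.26. Its mean was higher with 4-OHT in all 8 floxed lines, by 0.26 to 1.95. Foxa1-floxed vehicle libraries ran from 15.2 to 176 CPM with a median of 123, and 4-OHT libraries from 56.1 to 195 with a median of 160 (log2 0.84, SE 0.26, adjusted p = 0.238). The lowest of these were the 1552A libraries, which went from 15.2 and 26.5 CPM to 56.1 and 105. In Foxa2-floxed organoids it went from 194 and 198 CPM to 228 and 261 in 1267B and from 50.9 and 70.2 to 149 and 125 in 1526C (0.75, SE 0.31, adjusted p = 0.253). Col16a1, a collagen that binds to the surface of fibrils, was chosen after its values were seen. It had a higher 4-OHT mean in all 8 lines as well, by 0.14 to 3.26, from at most 3.20 CPM with vehicle.

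**Figure D3:**
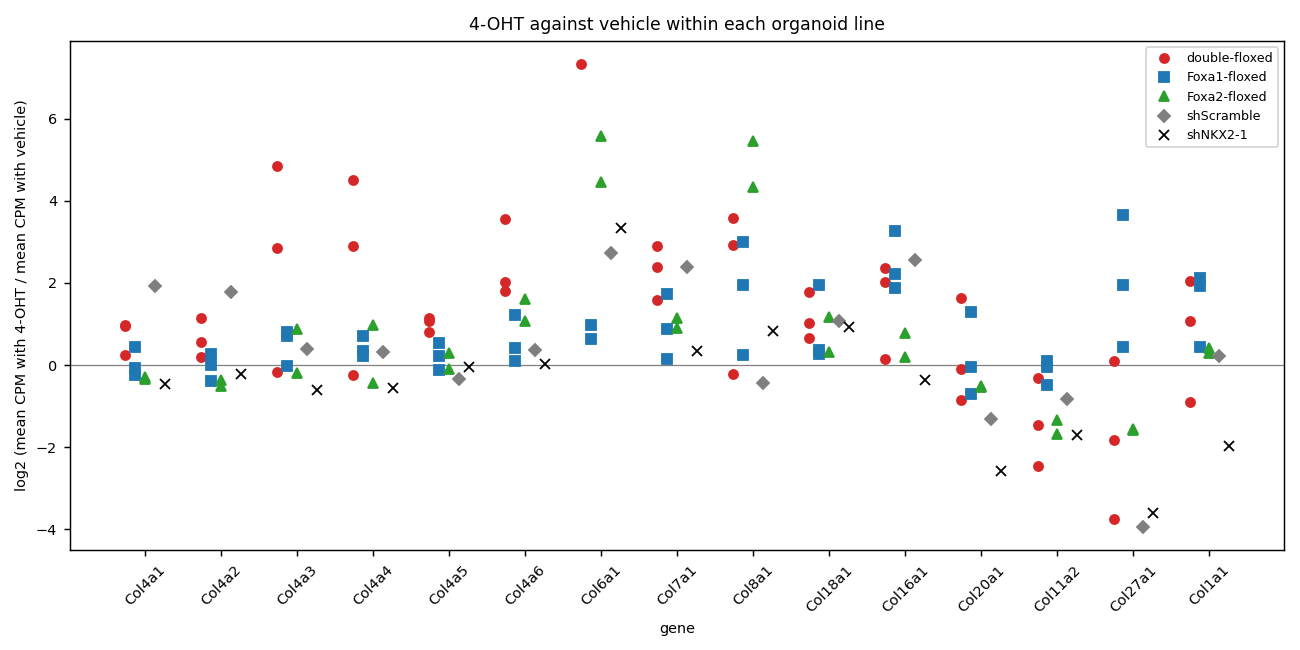
Log2 ratio of the mean CPM with 4-OHT to that with vehicle within each organoid line, for 15 collagen genes, coloured by genotype or hairpin. A line with 0 counts in either treatment has no point, which removes 3 of the 8 floxed lines for Col6a1. Col7a1, Col16a1, Col18a1 and Col4a6 lie above 0 in all 8 floxed lines, and Col11a2 lies below 0 in 7. Some Col4a6 points rest on few counts, such as 8 with each treatment in 1552B. In 1552C it had 1 count with vehicle and 3 with 4-OHT.

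The main type IV chains differed widely between lines. Col4a1 (chr8:11198423-11312826, minus strand) and Col4a2 (chr8:11312805-11449287, plus strand), the chains of the common α1α1α2 network, overlap by 22 bases at their starts on opposite strands. Vehicle means of Col4a1 per floxed line ranged from 309 CPM in 1292B to 1935 in 1526C. In double-floxed organoids Col4a1 had 372 and 598 CPM in 1027B, 1659 and 981 in 1027D and 309 in 1292B with vehicle. With 4-OHT it had 286 and 863, 2851 and 2255, and 604. The 1027D and 1292B libraries were higher with 4-OHT and those of 1027B overlapped (log2 0.67, SE 0.33, adjusted p = 0.304). In Foxa2-floxed organoids it went from 893 and 621 CPM to 577 and 620 in 1267B and from 1823 and 2047 to 1532 and 1624 in 1526C (-0.32, SE 0.17, adjusted p = 0.43). Foxa1-floxed libraries ran from 396 to 1852 CPM with vehicle (median 619) and 434 to 1759 with 4-OHT (median 620), a change of 0.05 (SE 0.14, adjusted p = 0.934). All 6 type IV genes had a higher fitted value in double-floxed 4-OHT libraries, and none was called. Their median log2 change was 1.88 beside 0.02 over all genes tested. They lie in neighbouring pairs in shared libraries, so they are not 6 independent genes, and Col4a3 and Col4a4 did not rise in 1292B. In Foxa1-floxed organoids the type IV median was 0.29 and in Foxa2-floxed organoids 0.18, beside 0.01 and -0.01 over all genes.

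The head-to-head partners Col4a1 and Col4a2 kept to each other while levels moved, and the other type IV pairs did so less closely or parted. Col4a1 stood at 0.809 to 1.67 times Col4a2 per kb in all 38 libraries (median 1.22), although Col4a1 itself spanned a 140-fold range. Col4a3 and Col4a4, the α3 and α4 chains, start 72 bases apart on chromosome 1, and in the 33 libraries with at least 50 counts of each Col4a3 stood at 0.41 to 1.38 times Col4a4 (median 0.606). Both moved by large steps in line 1027B, where Col4a3 had 4.27 and 0.0354 CPM with vehicle and 121 and 2.28 with 4-OHT, and Col4a4 had 9.49 and 0.212 and then 218 and 2.68. The library pair with title prefix 17699 thus held far more of both chains than the pair with prefix 17992, in each treatment. Within each pair both chains were higher with 4-OHT, although the treatments overlapped across pairs. In 1027D the treatments did not overlap. Col4a3 went there from 8.26 and 1.31 CPM to 43.7 and 25.1, and Col4a4 from 16.4 and 1.63 to 85.6 and 49.1. In 1292B neither rose, with Col4a3 at 6.04 and then 5.35 and Col4a4 at 7.15 and then 6.08. The fitted changes of 3.16 (SE 1.45, adjusted p = 0.267) and 3.06 (SE 1.47, adjusted p = 0.286) were no calls. Col4a5 and Col4a6, the α5 and α6 chains, start 1309 bases apart on chromosome X and parted widely. In double-floxed organoids Col4a5 went from 103 and 21.97 CPM to 138 and 80.1 in 1027B, from 54.7 and 43.3 to 124 and 93.3 in 1027D and from 35.2 to 74.6 in 1292B. Each 4-OHT library thus exceeded the vehicle library of its replicate number, without a call (log2 1.00, adjusted p = 0.172). Col4a5 was present in every library, from 15.5 to 188 CPM, while Col4a6 ranged from 0 to 106. In the 14 libraries with at least 50 counts of each, Col4a5 stood at 1.48 to 20.9 times Col4a6 per kb. These 38 libraries come from 8 lines, and the ratios are a description. Col4a3, Col4a4 and Col4a6 were singled out after their values were seen.

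**Figure D4:**
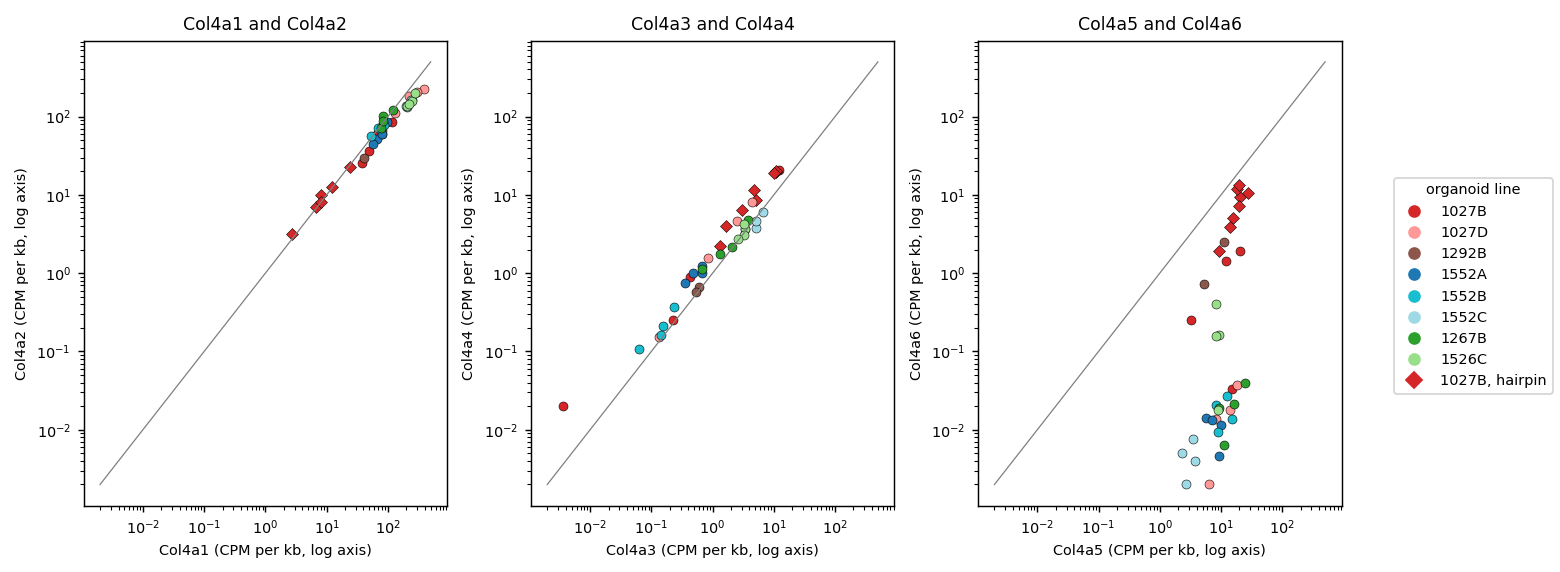
Level of the second chain against the first for the 3 pairs of type IV genes, in CPM per kb on log axes, 1 point a library, coloured by line. The grey line marks equal levels, diamonds are hairpin libraries and values under 0.002 are drawn at 0.002. Col4a1 and Col4a2 lie along the line at ratios of 0.809 to 1.67, and Col4a6 spreads from 0 to 13.3 CPM per kb while Col4a5 stays between 2.31 and 28.1.

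The mix of type IV chains in the hairpin libraries overlapped that of the same line in the double-floxed table through 1 library. The α3 to α6 chains made up 36.1 to 74.8% of type IV CPM there, against 16.1 and 2.37% in vehicle libraries of plain 1027B and 52.1 and 6.33% in its 4-OHT libraries. Col4a6 stood at 74.2 and 83.2 CPM with shScramble and vehicle, beside 0.264 and 2.02 in plain 1027B with vehicle. Col4a1 stood at 180 and 91.2 CPM beside 372 and 598 with vehicle. With 4-OHT it stood at 496 and 540 in shScramble libraries, between the plain 1027B values of 286 and 863. The tables were normalised separately and their titles have other number prefixes, whose meaning the labels do not give, so the hairpin and what the prefix marks cannot be told apart. Within a library the shares do not depend on the normalisation.

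**Figure D5:**
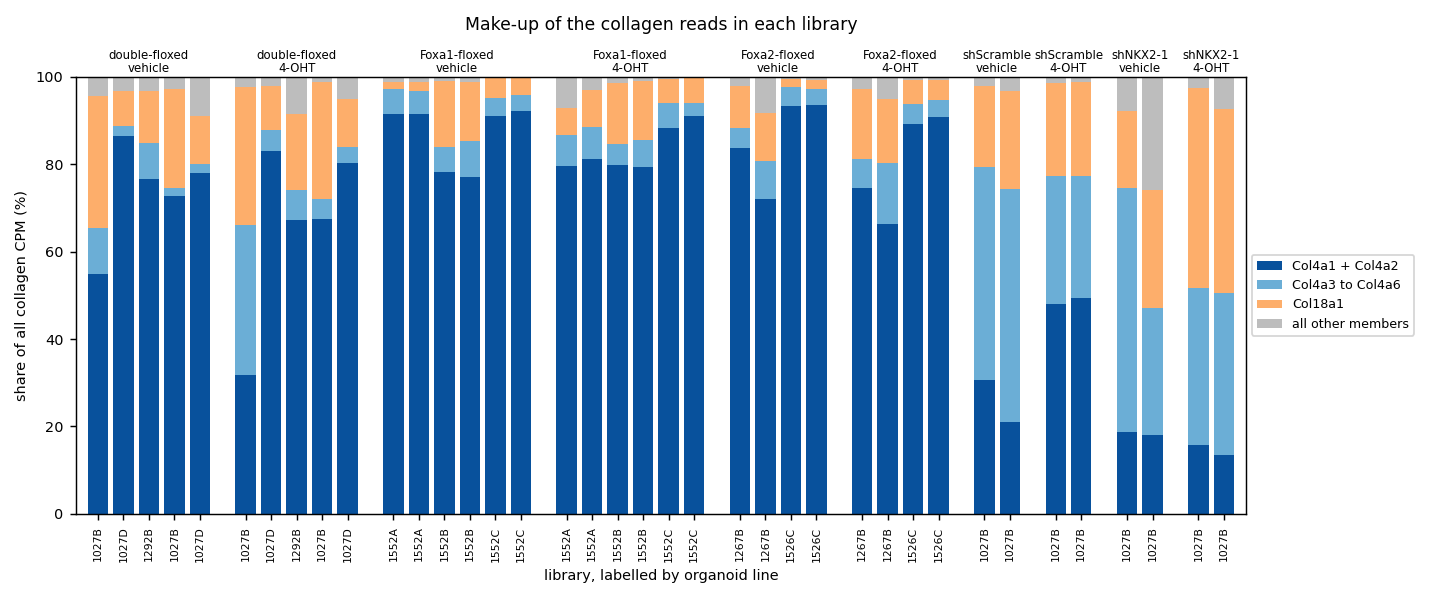
Share of all collagen CPM taken by Col4a1 with Col4a2, by Col4a3 to Col4a6, by Col18a1 and by all other members, as stacked bars for each library, labelled by line. Col4a1 and Col4a2 took 31.7 to 93.5% in the 30 libraries without a hairpin and 13.4 to 49.4% in the 8 hairpin libraries. In the second shNKX2-1 vehicle library, the other members include Col14a1 at 126 CPM.

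The Nkx2-1 hairpin went with lower Col4a1 and Col4a2 under 4-OHT. Col4a1 had 496 and 540 CPM with shScramble and 4-OHT, and 60.5 and 20.4 with shNKX2-1 and 4-OHT (log2 -3.68, SE 0.54, adjusted p = 0.021). Col4a2 had 398 and 420, and 66.3 and 20.9 (-3.23, SE 0.53, adjusted p = 0.0297). These were the 2 collagen genes called in that comparison, beside 1.58% of 14465 genes. Both calls were lost when either shScramble 4-OHT library was left out, with adjusted p from 0.099 to 0.214. Without the second shNKX2-1 4-OHT library, the one with 11.7% mitochondrial counts, both were kept. With vehicle, where 0.235% of all genes were called, none of the 18 tested collagen genes was, with 9 at an unadjusted p under 0.05 (1123 over all genes) and 1 called by DESeq2. All 6 type IV genes were fitted lower with shNKX2-1 in either treatment, with medians of -1.24 with vehicle and -2.22 with 4-OHT. As neighbouring pairs in shared libraries, they are not 6 independent genes. With shScramble, 4-OHT libraries held more Col4a1 than vehicle libraries (180 and 91.2 to 496 and 540 CPM, log2 1.93, adjusted p = 0.0797). With shNKX2-1 they did not (50.7 and 60 to 60.5 and 20.4, -0.45, adjusted p = 0.576). The difference between the 2 effects was -2.38 (SE 0.69, adjusted p = 0.68), and no gene of the 14465 was called for such a difference (0%), with 782 at an unadjusted p under 0.05, 3 of them collagen genes, and DESeq2 called no collagen gene. Both 4-OHT contrasts share their libraries with these between-hairpin contrasts.

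Among fibrillar genes, 2 fell with 4-OHT. Col27a1 (chr4:63214004-63334991, plus strand), a fibrillar collagen known from cartilage, had 7.55 and 8.91 CPM with shScramble and vehicle and 0.551 and 0.516 with 4-OHT. With shNKX2-1 it had 14.9 and 15.9 and then 1.69 and 0.818. The groups did not overlap, and the log2 changes were -3.93 (SE 0.44, adjusted p = 0.00262) and -3.59 (SE 0.41, adjusted p = 0.00297). It was the only collagen gene called in either comparison, where 4.33% and 6.35% of all genes were called, and it was called in all 7 alternatives of each. In the plain double-floxed libraries 1027B went from 30.4 and 23.3 CPM to 1.66 and 2.33, 1027D from 0.435 and 1.81 to 0.347 and 0.288, and 1292B from 0.159 to 0.169 (-2.53, SE 0.64, adjusted p = 0.0632). Col27a1 was thus lower with 4-OHT in 1027B (log2 ratio of line means -3.75) and, at far lower levels, in 1027D (-1.82), while 1292B had 3 counts in each treatment. The hairpin libraries are of 1027B alone. The levels in Foxa2-floxed organoids were set by 1 library pair of 1267B, at 72.8 CPM with vehicle and 23.5 with 4-OHT, where all other libraries had at most 2.37 (-1.56, SE 0.85, adjusted p = 0.449). In Foxa1-floxed organoids it ran the other way, from 0.150 to 1.13 CPM with vehicle and 0.428 to 4.73 with 4-OHT (1.89, SE 0.79, adjusted p = 0.379).

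Col11a2 (chr17:34039437-34066685, plus strand), which encodes the α2 chain of the cartilage collagen XI, fell in Foxa2-floxed organoids. It went from 12.1 and 43.6 CPM to 5.91 and 16.02 in 1267B and from 8.16 and 8.29 to 2.09 and 3.07 in 1526C (log2 -1.50, SE 0.39, adjusted p = 0.0417). Each 4-OHT library was lower than the vehicle library of the same replicate number. The call was lost in 9 of 16 alternatives, with adjusted p of up to 1 without the line block. In double-floxed organoids 1027D went from 58.3 and 115 CPM to 15.2 and 47.5 and 1027B from 2.74 and 8.10 to 0.979 and 0.984, while 1292B had 1.48 and 1.18 (-1.65, SE 0.49, adjusted p = 0.0981). Foxa1-floxed libraries stayed between 0.960 and 2.25 CPM in both treatments. Col20a1, of the fibril-associated group, was among the 3 highest members outside type IV and was not called in any comparison. It was led by 1267B and 1027D, with vehicle values of 17.9 and 21.95 and of 14.8 and 20.1 CPM. Col14a1, another fibril-associated collagen, was picked out after its values were seen. It had 126 CPM in 1 shNKX2-1 vehicle library and 0.293 in the other, and 16.4 and 0.474 in the 4-OHT libraries of that hairpin.

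Calls among genes that build or bind collagen are given beside the shares over all genes above (3.9%, 0.0118% and 3.43% in the double-, Foxa1- and Foxa2-floxed comparisons). At such shares, no call in a list of this size says nothing of the list. Of 19 genes for folding and modifying collagen chains, 18, 17 and 17 were tested in the double-, Foxa1- and Foxa2-floxed comparisons and none was called. All 17 were fitted lower in Foxa2-floxed organoids (median log2 change -0.37 beside -0.01 over all genes). The basement membrane partners (laminins, nidogens, perlecan and others, 15 genes) had 12, 13 and 13 genes tested in the same comparisons, with no call. Sparc, a secreted collagen-binding protein, was lower with shNKX2-1 than with shScramble under 4-OHT (-1.80, SE 0.32, adjusted p = 0.0366). In the hairpin arms, P4ha3, a prolyl hydroxylase subunit, fell with 4-OHT in both (-6.07, adjusted p = 0.00744, and -5.08, adjusted p = 0.00778). P3h2, which hydroxylates prolines of type IV chains, rose with 4-OHT under shNKX2-1 (1.35, adjusted p = 0.0261) and was higher than with shScramble under 4-OHT (1.75, adjusted p = 0.0253). Of 12 genes for collagen receptors and uptake, 9 were tested in double-floxed organoids and 10 in each single-floxed comparison. In that list, Itga2, the collagen-binding integrin α2, fell with shScramble (-2.21, adjusted p = 0.0151). Pepd, which splits proline dipeptides of degraded collagen, fell in double-floxed organoids (-0.85, adjusted p = 0.0451) and with shNKX2-1 (-1.61, adjusted p = 0.0438).

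The list for secretion, trimming and cross-linking held 19 genes, of which 11 were tested in double-floxed organoids and 13 in each single-floxed comparison. Creb3l1 was called most often. It encodes a membrane-bound transcription factor known to drive type I collagen and secretory pathway genes in bone. Double-floxed vehicle libraries held 113 and 129 CPM in 1027B, 146 and 92.5 in 1027D and 131 in 1292B. With 4-OHT they held 0.343 and 6.26, 0.298 and 2.99, and 0.394. The groups lay far apart in every line (log2 -6.05, SE 0.91, adjusted p = 0.0123). It fell in Foxa2-floxed organoids from 66.0 to 117 CPM down to 28.8 to 37.4 (-1.61, SE 0.28, adjusted p = 0.00453), and it fell in both hairpin arms (-7.97, adjusted p = 0.00202, and -7.41, adjusted p = 0.00177). In Foxa1-floxed organoids it was no call (-0.85, SE 0.23, adjusted p = 0.16), and the difference between the double-floxed and Foxa2-floxed effects was -4.46 (SE 0.68, adjusted p = 0.0603). Loxl4, a lysyl oxidase that cross-links collagen, rose in double-floxed organoids from 2.49 to 24.6 CPM up to 33.6 to 176 (3.17, SE 0.33, adjusted p = 0.00391). Adamts3, a procollagen protease, fell with 4-OHT under shNKX2-1 (-2.58, adjusted p = 0.0366). The effect of 4-OHT on Bmp1, the protease that trims procollagen ends, was higher in double-floxed than in Foxa2-floxed organoids (1.69, SE 0.24, adjusted p = 0.0483).

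Some markers of other cell types also differed with 4-OHT. Upk3b, a mesothelial marker, rose in double-floxed organoids (log2 3.91, SE 0.72, adjusted p = 0.0236) and in Foxa2-floxed organoids (3.07, SE 0.43, adjusted p = 0.000756). The 4 mesothelial markers summed to 223 to 842 CPM in double-floxed vehicle libraries and 444 to 2635 with 4-OHT, and to 137 to 587 and 345 to 686 in Foxa2-floxed libraries. Wt1, the defining mesothelial factor of that list, had 0 counts in these 4 groups. Itgam, a leukocyte marker, rose in Foxa2-floxed organoids (2.22, SE 0.57, adjusted p = 0.0403), where the leukocyte list summed to 4.31 to 60.5 CPM with vehicle and 6.33 to 44.4 with 4-OHT and Tyrobp had 0 counts. Smooth muscle and pericyte markers summed to 0.413 to 4.92 CPM in Foxa2-floxed vehicle and 0.498 to 15.8 in Foxa2-floxed 4-OHT libraries. The lung epithelial genes Sftpb (log2 -1.84, adjusted p = 0.0404) and Lamp3 (-6.98, adjusted p = 0.0348) fell in double-floxed organoids. Of the 5 lung adenocarcinoma markers, 1 was also called lower with 4-OHT in Foxa2-floxed organoids, 2 with shScramble and 3 with shNKX2-1. Over all genes the shares called were 3.43%, 4.33% and 6.35%. Under 4-OHT, 3 of them and 1 of 6 epithelial markers were lower with shNKX2-1 than with shScramble, beside 1.58% of all genes. Fibroblast markers summed to at most 4.61 CPM in double-floxed vehicle, 3.13 in double-floxed 4-OHT, 0.421 in Foxa2-floxed vehicle and 1.12 in Foxa2-floxed 4-OHT libraries. All 8 fibroblast markers had 0 counts in the shScramble vehicle libraries, which held 0.825 and 0.540 CPM of Col6a1 (14 and 8 counts). In double-floxed 4-OHT libraries 7 of the 8 had counts. The part of fibroblasts or of any other cell type in the collagen changes was not tested.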

How the data were processed

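RNA was measured by bulk sequencing in 38 organoid libraries. Per the labels' protocols, RNA was isolated with a PureLink kit and libraries were made with a NEBNext directional kit. The authors deposited 3 tables of raw read counts per Ensembl gene ID, with no normalisation. STAR 2.7.6a, featureCounts 1.5.1, DESeq2 and GRCm38 are named in the submitters' processing notes, without the role of each. Which strand setting the counting used is not stated in these sources, so reads where Col4a1 and Col4a2 overlap cannot be assigned with certainty. The labels mention 21 days for crosslinked cells, while the time of RNA collection is not stated.

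Gene symbols, exon lengths and coordinates came from GENCODE release M21 (GRCm38), which matched 99.5% of IDs in the double-floxed table and 99.4% in the others. Counts entered edgeR 4.0.16 (under R 4.3.3), with TMM factors, the filterByExpr filter and the quasi-likelihood F test, organoid line as block, 4 group means for the hairpin table, and Benjamini-Hochberg adjustment over all genes tested. Differences between genotype effects used counts summed per line. CPM were scaled by the TMM factors of each table. SE is the log2 change divided by the root of its F value. Line pairing rests on the line named in the labels, and same-line deviations from the group means had correlations between 0.127 and 0.898. Among the 66 pairs of libraries within a group, none agreed within counting noise (lowest mean chi-square per gene 11.1, where 1 is expected). Only the edgeR fit of the double-floxed comparison was tested on simulated data.

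Named with values are Col6a1, Col8a1, every called member, the 3 members per class with the highest median CPM per kb, and up to 4 called genes per related list and comparison. The members and lists were chosen with earlier results of these data known. Alternatives were RLE scaling, DESeq2 1.42.0, no filter on low counts, no line block, a block of line and title prefix, counts summed per line, and leaving out each library or line. Floors and counting intervals cover counting error only, because PCR copies were not told apart by molecular identifiers.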

Additional observations from a re-analysis of the deposited data

Results flagged for a closer look

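In 72 combinations of a named collagen gene and a group of 4 to 6 libraries, 11 libraries lay far from the others of their group. Chance would give about 5 in 100 only if the libraries of a group were alike. Each group here holds several lines with different levels, so the count is a description and no excess over chance is claimed. Replicate 2 of line 1267B accounts for 6 of these: in Foxa2-floxed vehicle Col11a2 (43.6 CPM against 8.16 to 12.1) and Col27a1 (72.8 against 1.81 to 2.37), and with 4-OHT Col27a1 (23.5 against 0.621 to 1.99), Col4a5 (164 against 55.7 to 61.7), Col6a1 (3.52 against 0.612 to 0.900) and Col1a1 (2.43 against 0.475 to 0.765). That replicate has title prefix 17992, while replicate 1 of the line has 17699 and the 1526C libraries have 19659.

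In double-floxed organoids the only 1292B pair stood apart for Col8a1, with 7.21 CPM against 0.109 to 0.904 with vehicle and 54.3 against 0.230 to 10.6 with 4-OHT. Col20a1 had 29.3 CPM in double-floxed 4-OHT replicate 5 (1027D) against 2.55 to 3.61. In Foxa1-floxed 4-OHT libraries, Col20a1 had 2.05 CPM in replicate 2 (1552A) against 0.472 to 0.942, and Col6a1 had 2.55 in replicate 3 (1552B) against 0 to 0.834. The cause of these differences was not tested.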

How the results depend on the processing

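Over 149 alternative values of the 11 collagen calls, 105 kept the call, 44 lost it and none changed direction. Col27a1 kept both calls in all alternatives. Numbers of collagen genes called moved as follows, with the cause not tested unless given. In double-floxed organoids (4 called) DESeq2 gave 7, no filter on low counts 13, a replicate block of line and title prefix 8, no replicate block 0, leaving out line 1027B 1 and line 1027D 0, and leaving out single libraries 2 to 4. In Foxa1-floxed organoids (0 called) DESeq2 gave 3, no filter 6, leaving out line 1552B 1 and single libraries 0 to 1. In Foxa2-floxed organoids (3 called) no filter gave 8, no replicate block 0, counts summed per line 1, and leaving out line 1526C 0, which leaves 1 line. For 4-OHT with shScramble (1 called) DESeq2 gave 5 and no filter 7. For 4-OHT with shNKX2-1 (1 called) DESeq2 gave 3, no filter 6 and leaving out single libraries 1 to 9. For shNKX2-1 against shScramble with vehicle (0 called) DESeq2 gave 1 and no filter 8, and with 4-OHT (2 called) 6 and 9, with 0 to 9 when single libraries were left out. For the difference of 4-OHT effects between hairpins (0 called) no filter gave 3 and leaving out single libraries 0 to 6, and between double-floxed and Foxa2-floxed lines (0 called) DESeq2 gave 1. The highest values came without shNKX2-1 4-OHT replicate 1, which leaves the library with 11.7% mitochondrial counts alone in its group and assumes that it varies like the others. The comparison of Foxa1-floxed with Foxa2-floxed effects gave 0 throughout. The number called among all genes spanned 0 to 2391 for double-floxed lines, 0 to 1141 where Foxa1 was floxed and 5 to 1816 where Foxa2 was.

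Leaving out single libraries also turned uncalled directions: over these fits Col8a1 ran from -1.04 to 0.57 with shScramble, -0.45 to 1.48 with shNKX2-1, -1.15 to 0.77 between hairpins under 4-OHT and -0.0012 to 1.93 for the difference of effects, where Col6a1 ran from -0.42 to 4.41. At this depth 23 of 44 collagen genes had too few counts to test in each floxed table, and 26 in the hairpin table, where low and absent expression cannot be told apart.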

Other observations

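Of the 4 collagen genes that rose in double-floxed organoids, 3 are neighbours on chromosome 10. From Col6a2 to Col18a1 (chr10:76595762-77166548, 571 kb) GENCODE lists 12 genes. Only 4 of them were tested: Col6a1, Col6a2, Col18a1 and Slc19a1, a folate transporter. Slc19a1 was fitted lower (log2 -1.06, adjusted p = 0.117, edgeR) and was not called. Col6a1 and Col6a2 lie 85.2 kb apart on the same strand. The interval was chosen after the calls were seen, so the count is a description. Col6a1 and Col6a2 also passed the filter through the 4-OHT group, so their calls are not read against the 3.9% of all genes called.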
